A study of Mus musculus with 8 samples.

Results

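To follow how cells with reduced Grp94 transcribe the genes that supply cysteine and glutathione, 9 mouse genes were described in neuro2a (N2a) cells. They are Slc7a11 and Slc3a2 (cystine uptake), Cth and Cbs (transsulfuration), Gclc, Gclm and Gss (glutathione synthesis), Gsr (glutathione reduction) and Chac1 (glutathione breakdown). The genes were chosen by symbol, and several of them were picked from the same contrast between knockdown and vector that is described here, so their differences are a description and no test was made on them. Of the 9 genes, 6 had a transcript cluster in the deposited table (6 of 2395 clusters), and 3 (Gclm, Gss and Gsr) had none. A transcript cluster is the set of probes that Affymetrix Mouse Gene 1.0 ST arrays assign to a gene. For genes without a row no value can be given, neither a difference nor the lack of one.

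N2a is a mouse neuroblastoma line. Of the 8 arrays, 4 carried RNA of cells transfected with a control vector, taken here as the empty one. The other 4 carried RNA of cells transfected with vectors whose artificial microRNA targets Grp94, the endoplasmic reticulum (ER) chaperone encoded by Hsp90b1. Both groups thus went through transient transfection with a vector that also encodes EmGFP, and how many cells took up a vector is not given in the sources used here. The methods name a pair of Grp94 constructs, and as controls an empty and a non-targeting vector, whereas the labels name 1 treatment per group and no construct. Nothing in the labels says whether the arrays of a group came from separate cultures.

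The table holds 1 mean per group and no value per array. Each mean is on the log2 scale and was centred for its own cluster, so neither the spread between arrays nor the level of one gene against another can be read from it, and the identity of the line could not be checked on marker genes. In RNA from whole cultures, fewer cells that express a gene and less RNA per cell cannot be told apart. The target itself differed in the labelled direction. Hsp90b1 had a mean of 0.74 in the vector group and -0.78 in the knockdown, a difference of -1.52 on the log2 scale.

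Cysteine limits the synthesis of glutathione, the main thiol that protects cells against oxidants. Cells import its oxidized dimer, cystine, through system xc-, which exchanges it for glutamate, or make cysteine from methionine through transsulfuration, in which Cbs condenses homocysteine with serine and Cth cleaves the resulting cystathionine. Glutamate-cysteine ligase and glutathione synthetase then build glutathione. Several of these genes are known targets of ATF4, the factor induced by lack of amino acids and by ER stress. Several are known targets of NRF2, the factor induced by oxidants, and a gene can be a target of both.

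The known ATF4 element joins parts of the sites of C/EBP and of ATF factors, and its core can be searched as a short motif. The promoter sequences of the 4 listed genes with an entry in the RefSeq table (build GRCm38.p6) are shown because they differ in this motif. Each line gives the 250 bases before the annotated start, 5′ to 3′ on the strand of the gene. Capitals mark every match, on either strand, of TGATGNAA (the core of the ATF4 composite element), TGACNNNGC (the core of the antioxidant response element bound by NRF2) and CCAAT (the box bound by NF-Y, which reads ATTGG on the other strand). The windows lie at chr3:50443614-50443863 (minus strand) for Slc7a11, chr2:119350992-119351241 (plus strand) for Chac1, chr19:8713898-8714147 (minus strand) for Slc3a2 and chr17:31637206-31637455 (minus strand) for Cbs.
Slc7a11: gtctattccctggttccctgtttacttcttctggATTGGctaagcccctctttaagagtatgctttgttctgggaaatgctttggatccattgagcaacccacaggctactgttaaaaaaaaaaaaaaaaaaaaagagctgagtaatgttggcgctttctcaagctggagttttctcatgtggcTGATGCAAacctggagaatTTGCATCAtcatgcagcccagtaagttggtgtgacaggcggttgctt
Chac1: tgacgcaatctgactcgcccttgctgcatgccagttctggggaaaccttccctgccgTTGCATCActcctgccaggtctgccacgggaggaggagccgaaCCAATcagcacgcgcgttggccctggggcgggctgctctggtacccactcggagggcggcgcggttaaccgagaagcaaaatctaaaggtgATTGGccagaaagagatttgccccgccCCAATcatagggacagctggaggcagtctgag
Slc3a2: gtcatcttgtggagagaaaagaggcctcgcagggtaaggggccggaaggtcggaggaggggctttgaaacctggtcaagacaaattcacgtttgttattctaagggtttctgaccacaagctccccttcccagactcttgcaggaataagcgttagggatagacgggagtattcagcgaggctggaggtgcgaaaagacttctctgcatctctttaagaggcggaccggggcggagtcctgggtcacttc
Cbs: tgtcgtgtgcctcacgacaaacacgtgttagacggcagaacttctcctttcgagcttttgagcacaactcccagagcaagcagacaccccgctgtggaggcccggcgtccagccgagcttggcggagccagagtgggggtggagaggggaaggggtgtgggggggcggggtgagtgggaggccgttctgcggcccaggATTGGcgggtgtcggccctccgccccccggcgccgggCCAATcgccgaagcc

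The core of the ATF4 element was found in 2 of the 6 member windows, those of Slc7a11 and Chac1. In Slc7a11 it occurred once on each strand, at -66 to -59 and at -47 to -40 from the start, so that the 2 matches face each other. In Chac1 it lay on the opposite strand at -193 to -186. Over all 32851 RefSeq promoter windows of the same length (300 bases, 250 before and 50 after the start), 3.97% held this motif. The antioxidant response element core was found only in the window of Gclm, which has no value in the table, at -134 to -126, beside 12.4% of all windows. The NF-Y box was present in Slc7a11, Chac1, Cbs and Gclm, beside 37.4% of all windows, with 3 matches in Chac1, 2 in Cbs and 1 in each of the others. None of the 3 motifs was found in the windows of Slc3a2 and Gss, and no matches of different motifs overlapped. A match in letters is not a bound site, and binding was not measured here. Sequence outside these windows was not searched, so elements that lie there would be missed. Inside the windows only the 3 spellings given above were searched, so elements spelled otherwise would be missed as well. Promoters of Cth, Gclc and Gsr were not analysed here.

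**Figure D1:**
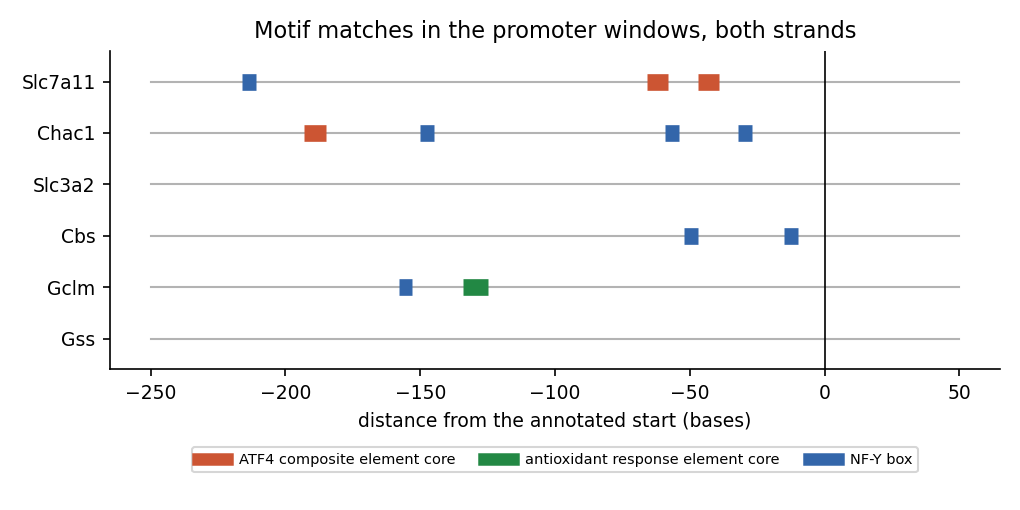
Matches of the 3 motifs on both strands of the 6 member promoter windows, by distance in bases from the annotated start (vertical line). Slc7a11 holds 2 matches of the ATF4 element core between -66 and -40, Chac1 holds 1 between -193 and -186, and no window of the other 4 genes holds one.

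Both genes of cystine uptake were lower in the knockdown, to very different extents. Slc7a11 (chromosome 3, 49696436 to 50247535, minus strand, 25 probes, with positions as deposited and their build not given in the sources used here) encodes xCT, the subunit of system xc- that carries cystine. Its mean was 0.61 in the vector group and -0.69 in the knockdown. The difference of -1.30 on the log2 scale corresponds to a 2.45-fold lower signal. The Slc7a11 cluster spans 551100 bases, beside 38888 for the next widest listed member, Gclc. Whether all 25 probes of the Slc7a11 cluster measure that gene was not tested. Slc3a2 (chromosome 19, 8781372 to 8797575, minus strand, 30 probes) encodes the CD98 heavy chain, which brings xCT and several other amino acid carriers to the plasma membrane. Its mean was 0.10 in the vector group and -0.11 in the knockdown, a difference of -0.20 and a 1.15-fold lower signal. The difference of Slc7a11 minus that of its partner was -1.09 on the log2 scale, a value that does not depend on the zero point. Slc7a5, the neutral amino acid carrier LAT1, was the only one of 5 other light chains that pair with Slc3a2 to be listed, and its difference of -0.21 was close to that of the heavy chain.

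The enzymes of transsulfuration differed in opposite directions. Cth (chromosome 3, 157557212 to 157588027, minus strand, 24 probes), cystathionine gamma-lyase, releases cysteine in the last step of the pathway. Its mean was 0.68 in the vector group and -0.78 in the knockdown, a difference of -1.46 on the log2 scale and a 2.76-fold lower signal. Cbs (chromosome 17, 31749585 to 31774110, minus strand, 35 probes), cystathionine beta-synthase, catalyses the entry step. Its mean was -0.08 in the vector group and 0.11 in the knockdown, so that it was 1.15-fold higher, with a difference of 0.20. It was the only listed member that was higher. The differences of Cth and Cbs lay 1.66 apart on the log2 scale.

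Glutathione itself is represented by a synthetic and a degrading enzyme. Chac1 (chromosome 2, 119176992 to 119180117, plus strand, 26 probes) encodes a cytosolic gamma-glutamylcyclotransferase that cleaves glutathione and is known as a target of the ATF4 pathway. Its mean was 0.31 in the vector group and -0.24 in the knockdown, a difference of -0.55 and a 1.46-fold lower signal. Gclc (chromosome 9, 77602585 to 77641472, plus strand, 34 probes), the catalytic subunit of glutamate-cysteine ligase, had means of 0.05 and -0.05. With a difference of -0.10, a 1.07-fold lower signal, it had the smallest difference of the 6 as deposited. After re-centring on the median of all listed clusters (-0.16), Gclc turned to 0.062 and Slc3a2, at -0.038, was the smallest. The ligase's modifier subunit Gclm, the synthetase Gss and the reductase Gsr were not listed, so the synthetic branch rests on a single cluster.

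**Figure D2:**
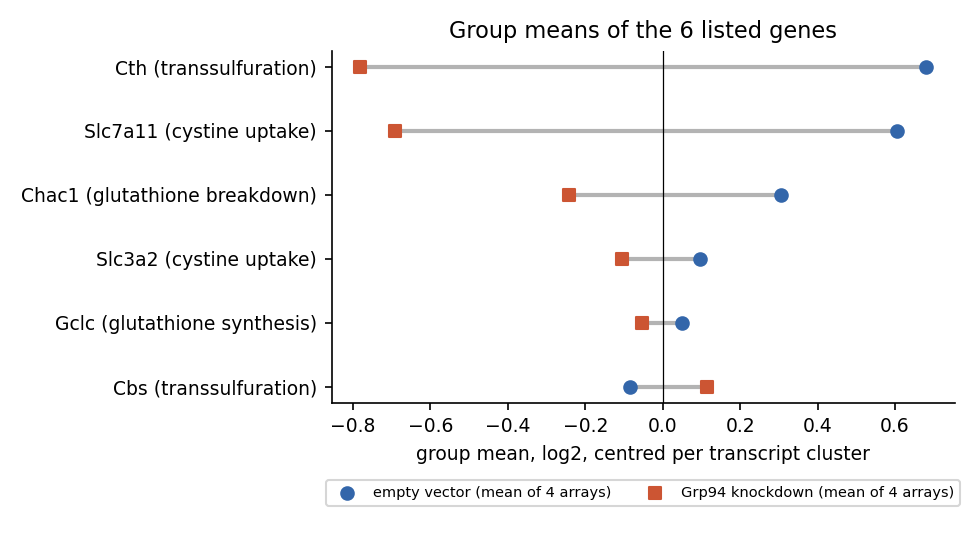
Mean of the empty vector group (circles) and of the Grp94 knockdown group (squares), each over 4 arrays, for the 6 listed genes on the log2 scale centred for each transcript cluster. No error bars are drawn because the table holds no spread. Cth and Slc7a11 have the widest gaps (differences of -1.46 and -1.30), and Cbs alone has the knockdown mean to the right.

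The 6 genes were next placed among all listed clusters. At a fold over 1.3 (0.379 on the log2 scale), 3 of the 6 were lower (Cth, Slc7a11 and Chac1), beside 16.1% of all 2395 clusters, and none was higher, beside 6.26%. By any amount 5 of 6 were lower, beside 59.9%. Their median difference was -0.38, and that of all listed clusters was -0.16. Because the members were taken from this contrast, nothing is read from these shares. The table itself keeps only clusters past a limit on the adjusted p of the deposited comparison, so all of these shares describe listed clusters and not the whole array.

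In order from the lowest difference, Cth stood at place 5 and Slc7a11 directly after it at place 6. Chac1 stood at place 150. Slc3a2, at place 1027, and Gclc, at place 1392, came late among the 1434 lower clusters, with Gclc close to the end. Cbs had place 592 from the highest. The spacing between neighbours in this order could not be compared with the spread between arrays. The 3 clusters with a single symbol whose difference was closest to that of Cth were those of Fam129a (-1.48), of the knockdown target Hsp90b1 (-1.52) and of Car6 (-1.54), where likeness means only the distance between differences of 2 group means.

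**Figure D3:**
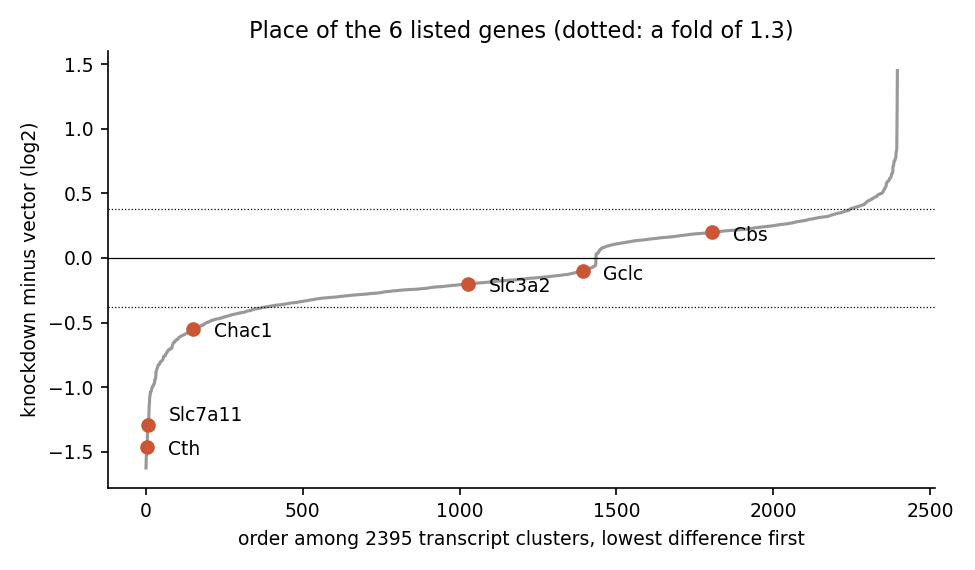
Difference of group means (knockdown minus vector, log2) of the 2395 transcript clusters, ordered from the lowest, with the 6 listed genes as points and dotted lines at a fold of 1.3. Cth and Slc7a11 lie at places 5 and 6, Chac1 at place 150, and the remaining 3 lie between the dotted lines.

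Genes around the pathway were then described through 10 lists with 171 genes in all, of which 47 were listed on 47 clusters. Of these clusters 40 (85.1%) were lower and 7 were higher, beside 59.9% lower in the whole table. Past a fold of 1.3, 13 (27.7%) were lower, beside 16.1% of the table, and none was higher, beside 6.26%. The median difference was -0.28, and that of the table was -0.16. The lists were chosen with earlier results of these data known, so these shares are a description.

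Upstream of transsulfuration, 4 of 16 genes of the methionine and folate cycles were listed. Of these, 2 were lower, beside 59.9% of the table, and 2 were higher. Shmt2, the mitochondrial serine hydroxymethyltransferase (-0.41), and Mat2b, a subunit of methionine adenosyltransferase (-0.22), were lower. Mthfd1, a cytosolic folate enzyme (0.15), and Ahcyl2, a relative of adenosylhomocysteinase (0.26), were higher. Shmt2 alone passed a fold of 1.3, beside 16.1% of the table that was lower past it.

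Downstream, 4 of 15 genes of cysteine and sulfide oxidation were listed and each was lower, beside 59.9% of the table. They were Got1, the cytosolic aspartate aminotransferase (-0.31), the persulfide dioxygenase Ethe1 (-0.22), the sulfurtransferase Mpst (-0.22) and a cluster that Tstd2 shares with Tmod1 (-0.46). The taurine branch enzymes Cdo1 and Csad were not listed. Of 10 other carriers of cystine, cysteine or neutral amino acids, 4 listed clusters were lower and 1 was higher. Slc1a5 (-0.38) and Slc1a4 (-0.28), which exchange small neutral amino acids, Slc38a2 (-0.17), a sodium-coupled carrier, and a cluster that Slc3a1 shares with Prepl (-0.17) were lower, whereas Ctns, the lysosomal cystine exporter, was higher (0.21). Slc1a5 and the cluster of Tstd2 and Tmod1 were the ones of these past a fold of 1.3, beside 16.1% of the table. The fold of Slc1a5, 1.302, lay just over that limit.

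Among 41 genes that use glutathione, 9 were listed on 8 clusters, 7 lower and 1 higher, beside 59.9% of the table lower. Past a fold of 1.3, 4 were lower, beside 16.1% of the table. They were the transferases Gstm2 (-0.55), Gstm1 (-0.45) and Gstm7 (-0.43) and the glutaredoxin Glrx (-0.47). The Gstm genes are close copies of each other, and to what extent their probes tell them apart was not tested. Ptges (-0.33) and the cluster shared by Gstp1 and Gstp2 (-0.30) were within that fold. No glutathione peroxidase was listed. Of 17 genes of glutathione breakdown and export, 2 were listed, the exporter Abcc1 (-0.24) and the dipeptidase Dpep1 (-0.21). Of 13 thioredoxin system genes, the peroxiredoxins Prdx6 (-0.28) and Prdx4 (-0.26) were listed and lower.

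NADPH, which keeps glutathione reduced, is made by several of the listed enzymes. Of 15 genes of NADPH supply, 6 were listed on 7 clusters, and each of the 7 was lower, beside 59.9% of the table. Past a fold of 1.3, 2 were lower, beside 16.1%. Aldh1l2, a mitochondrial folate dehydrogenase, had the largest difference of this list (-1.02), followed by G6pdx, the entry enzyme of the pentose phosphate pathway (-0.39). The autosomal copy G6pd2 (-0.30), the malic enzymes Me1 (-0.29) and Me2 (-0.19) and the isocitrate dehydrogenase Idh1 (-0.21) were within a fold of 1.3. To what extent the probes of G6pd2 and G6pdx tell these genes apart was not tested. A second cluster with the symbol Me1 (-0.29) is placed on chromosome 13 (62915449 to 62916150) and not on chromosome 9, where the first lies, and which transcript it measures was not tested.

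Of 19 genes of ferroptosis and iron handling, the former being an iron-dependent cell death known to follow loss of cystine uptake, 7 were listed. Of these, 6 were lower, beside 59.9% of the table, and 1 was higher. Beside 16.1% of the table, the heme oxygenase Hmox1 (-0.58) alone was lower past a fold of 1.3. The transferrin receptor Tfrc (-0.37), the glutaminase Gls2 (-0.33), the acyltransferase Lpcat3 (-0.20), the ferritin heavy chain Fth1 (-0.17) and Sat1 (-0.16), of polyamine breakdown, were lower within it, and Cisd1 was higher (0.16).

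Of 20 regulators, 7 were listed, 5 lower and 2 higher, beside 59.9% of the table lower. Trib3 (-0.94), Ppp1r15a (-0.70) and Atf3 (-0.57), which act in or after the ATF4 pathway, were lower past a fold of 1.3, beside 16.1% of the table. Atf4 itself had a difference of -0.26 and a cluster shared by Ddit3 and Mars one of -0.34. Trp53 (0.22) and Bach1 (0.22), a repressor of antioxidant genes, were higher within that fold. Nfe2l2, the gene of NRF2, and its inhibitor Keap1 were not listed.

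**Figure D4:**
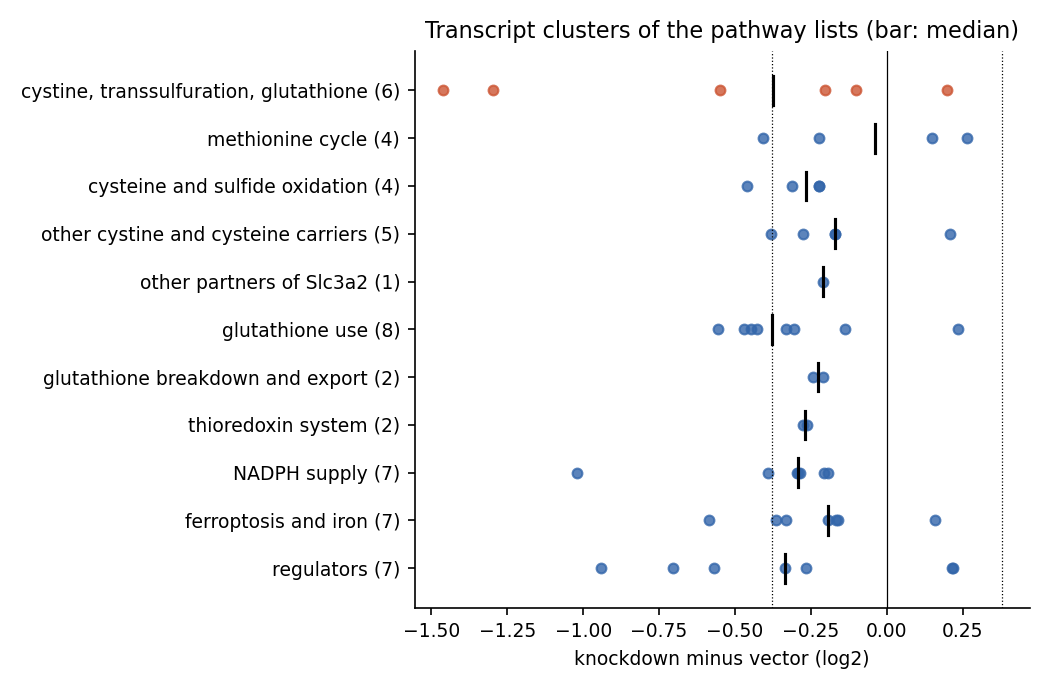
Difference of group means (knockdown minus vector, log2) of each listed transcript cluster of the 6 members (top row) and the 10 surrounding lists, with the number of clusters in brackets, the median as a bar and a fold of 1.3 as dotted lines. Of the 47 surrounding clusters 40 (85.1%) lie left of 0, beside 59.9% of the whole table, and Aldh1l2 (-1.02) and Trib3 (-0.94) lie nearest to Slc7a11 and Cth.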

How the data were processed

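The authors transfected N2a cells, labelled total RNA and hybridised it to Affymetrix Mouse Gene 1.0 ST arrays. They analysed 4 arrays per group in Agilent GeneSpring GX and left out genes under a low percentile of expression. Probe summarization, normalization and genome build are not given in the sources used here. The deposited values are log2 means of each group, centred per transcript cluster. The same table holds p-values, adjusted p-values and fold changes of the authors' comparison. These gave no value here and were read for 2 checks, that every adjusted p is at most 0.01 and that the deposited log fold change equals knockdown minus vector mean in every row.

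Groups came from sample titles. Rows were found by splitting symbols, and 6 of 6 members matched GRCm38.p6 RefSeq by Entrez number. Without values per array no test, interval or standard error was possible, and the number of arrays limits precision. The members, the lists, the motifs and the fold of 1.3 were chosen with earlier results of these data known. Named genes were all members, the 3 single-symbol clusters nearest to the leading member, up to 6 listed genes per list with the largest differences, and Hsp90b1. Bach1 and Cisd1, the genes of the closing observations and genes named as not listed were named outside this rule, after their values were seen, and 1 gene of the methionine and folate list is not reported here. Calculations used Python 3.11.15, numpy 2.4.6 and pandas 2.3.3, and plots matplotlib 3.10.9. Counting and motif search were tested on simulated data. Alternatives changed the fold, the zero point, the rows with several symbols and the promoter window.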

Additional observations from a re-analysis of the deposited data

How the results depend on the processing

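No paired analysis was possible because the table holds 1 mean per group and no value per array, and for the same reason no array could be left out. Cth, Slc7a11 and Chac1 were the 3 members lower past a fold of 1.3 and 3 members were also lower past 1.2, and 2 (Cth and Slc7a11) past 1.5 and past 2. Over all listed clusters the lower ones numbered 385 at a fold of 1.3, 761 at 1.2, 128 at 1.5 and 20 at 2. Re-centring on the median of listed clusters (-0.16) gave differences of -1.30 for Cth, -1.13 for Slc7a11, -0.38 for Chac1, -0.038 for Slc3a2 and 0.36 for Cbs, and turned Gclc from -0.10 to 0.062, which follows from the shift. Under it 3 members were still lower past a fold of 1.3, with Chac1 (-0.384) just beyond the limit of 0.379 on the log2 scale. The lower clusters then fell to 159 of the table and the higher ones went from 150 to 527. The median of clusters outside the table is not known, so the direction of Gclc and the size of Slc3a2 rest on the zero point. Of the 47 clusters of the surrounding lists, 40 were lower, and 38 after re-centring. With rows of a single symbol alone 36 were lower, where the clusters left out were all lower ones and the total fell as well. The median of the methionine and folate list turned from -0.038 to 0.126 after re-centring, and no other list median changed sign. Motif counts of the members were equal with the bases before the start alone.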

Other observations

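The share of promoters with the core of the ATF4 element was compared between directions over the whole table, a description made after the match in Slc7a11 and Chac1 had been seen and with no test. Of genes with a single symbol, 249 that were lower past a fold of 1.3 had a promoter window, and 19 of them (7.63%) held the motif. Of 1100 within that fold 31 did (2.82%), and of 75 higher past it 0 did. Among all 27025 genes with a window the share was 4.51%. The 8 lower genes with the motif and the largest differences were Slc7a11 (-1.30), Lgi1 (-1.26), Trib3 (-0.94), Pi16 (-0.83), the proline synthesis gene Pycr1 (-0.80), Nupr1 (-0.78), Serpinf1 (-0.76) and Chchd10 (-0.72). The antioxidant response element core was present in 20.9% of the lower, 17.3% of the higher and 19.6% of the genes within the fold, beside 14% of all genes with a window. For the NF-Y box these shares were 44.2%, 40.0% and 45.1%, beside 41.1%. Slc7a11 and Chac1, whose matches prompted the comparison, are counted among the 19 lower genes with the ATF4 motif. Members of the surrounding lists are also among these genes, so the values are not independent of those given above.

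Iron-sulfur cluster assembly, which takes its sulfur from cysteine, was looked at after Glrx5 and Cisd1 had been seen on the higher side. Of 31 genes in a list drawn up then, 4 were listed. Glrx5 (0.23), Bola3 (0.20) and Cisd1 (0.16) were higher and Nfu1 was lower (-0.28), and none passed a fold of 1.3. Over the table, 961 of 2395 clusters were higher. Glrx5 and Cisd1 prompted the list, so no direction is read from it. The desulfurase Nfs1 was not listed.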
